A study of Mus musculus with 4 samples.

Results

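The genes described here encode adrenomedullin, its related peptides and the proteins that form their receptors. They are the ligand genes Adm, Adm2, Calca and Calcb, the receptor genes Calcrl and Calcr, and Ramp1, Ramp2 and Ramp3, which encode receptor activity-modifying proteins. The 9 genes were chosen by family with the Ctcfl to control differences of these arrays already in view, above all that of Adm, so those differences are given as a description and carry no test. Of the 9 genes, 8 had a probe set named for them alone, out of 19938 such genes on the array. Calca was not analysed here.

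The arrays measured RNA from NIH3T3 cells, an established line of mouse embryonic fibroblasts. All 4 samples came from 1 clone, p19, that carried the stably integrated plasmids pBI-EGFP-FLAG-mCtcfl and pTA-N. In this Tet-Off clone doxycycline represses Ctcfl, which encodes a germline paralog of the DNA-binding protein CTCF. The 2 control samples were kept in 2 µg/ml doxycycline and the 2 Ctcfl samples spent 48 h without the drug. Loss of the drug and expression of Ctcfl therefore cannot be told apart. The study asked which genes differ in expression when Ctcfl is present. No label says whether replicates were separate cultures, so errors and p-values cover array-to-array spread that could be purely technical, and 2 arrays per group limit the precision.

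Adrenomedullin is a secreted, amidated peptide that widens blood vessels, tightens endothelial barriers and is needed for lymphatic development. Its receptor is a complex: CALCRL, a class B G protein-coupled receptor, reaches the cell surface with a single-pass RAMP partner, and the partner sets which peptide binds. With RAMP1 the complex prefers calcitonin gene-related peptide (CGRP), whereas with RAMP2 or RAMP3 it prefers adrenomedullin. CALCR, the calcitonin receptor, pairs with the same partners to form amylin receptors. These complexes signal mainly through Gs and cyclic AMP.

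RefSeq promoter windows (GRCm38.p6) were found for 7 of the 9 genes. Ramp2 and Calcb had no window, so their promoters were not searched. The 2 windows printed are those of Adm and Ramp3, which with Ramp2 had the 3 largest differences in the family. Each shows the 250 bases before the start site, 5′ to 3′. Adm lies at chr7:110627407-110627656 on the plus strand and Ramp3 at chr11:6658283-6658532 on the plus strand. Capitals mark the motif letters found.
Adm: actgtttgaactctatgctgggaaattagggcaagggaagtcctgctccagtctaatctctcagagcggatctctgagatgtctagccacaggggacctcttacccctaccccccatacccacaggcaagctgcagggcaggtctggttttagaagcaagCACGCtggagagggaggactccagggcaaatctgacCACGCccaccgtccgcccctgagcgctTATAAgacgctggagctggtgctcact
Ramp3: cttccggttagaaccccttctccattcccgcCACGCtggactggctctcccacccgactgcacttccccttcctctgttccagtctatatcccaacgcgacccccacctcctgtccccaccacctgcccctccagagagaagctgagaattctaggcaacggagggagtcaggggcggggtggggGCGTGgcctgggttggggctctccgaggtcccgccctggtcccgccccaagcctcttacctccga

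The motifs searched were AGNNGGC, from the core of the CTCF motif, ACGTG and GCGTG, the cores bound by hypoxia-inducible factors, TGACG, the core of the cyclic AMP element, and TGANTCA, the AP-1 site, on both strands, and TATAA on the strand of the gene. The Adm window held TATAA starting at position -27 from the start site and the letters of GCGTG, read on the opposite strand, at positions -90 and -54. The Ramp3 window held GCGTG at -65 and its reverse complement, CACGC, at -219, and no TATAA. No marked letters overlapped another motif. Among the other family windows, AGNNGGC occurred in that of Calcrl, starting at -237, and in 1 of the 2 windows of Calcr, at -121, while TGACG occurred in both windows of Calcr and in that of Calca. Neither window held AGNNGGC, which occurred in 52.4% of the 32817 promoter windows of this length, nor ACGTG (16.6%), TGACG (17.7%) or TGANTCA (6.75%). GCGTG occurred in 28.1% of the windows and TATAA in 16% of them. The GC content was 56.8% for Adm and 65.2% for Ramp3, against a median of 52.4% over all windows. A match is a description of letters, not a binding site.

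Values are RMA expression values on the log2 scale, in which 1 unit is a 2-fold difference. Where levels of different probe sets are set beside each other, this is only a rough guide, since each probe set has its own response. To show which probe sets were dim, the lower quartile over genes was 4.25 to 4.34 on the 4 arrays and the median was 5.48 to 5.54. Detection calls were not used here, so a value near the lower quartile cannot be separated from background. The targeted gene, Ctcfl, read 7.77 and 7.71 on the control arrays and 10.37 and 10.35 on the Ctcfl arrays, in the direction of the labels. Its control values were near the upper quartile over genes (7.76 and 7.73 on these arrays). Whether they reflect Ctcfl RNA made in doxycycline was not tested, so the controls are not taken as free of it.

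Of the family, Adm and Ramp2 were higher in the Ctcfl arrays by similar amounts, Ramp3 was lower, and Calcrl, which encodes the receptor subunit that RAMP2 and RAMP3 share, had a difference close to 0. The ligand Adm read 8.42 and 8.24 on the control arrays and 9.11 on both Ctcfl arrays. Both Ctcfl arrays were above both control arrays. The difference was 0.78 on the log2 scale (SE 0.10, n = 2 per group), or 1.72-fold, the 18th highest of all 19938 genes. The control arrays differed from each other by more than the Ctcfl arrays did, with group means of 8.33 ± 0.13 and 9.11 ± 0.00 (SD, n = 2).

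The other ligand genes had overlapping groups. Adm2, which encodes adrenomedullin 2 (intermedin), a peptide that binds the CALCRL complexes with all 3 partners, read 5.02 and 5.39 in control and 5.27 and 5.07 in Ctcfl arrays. Its difference of -0.035 (SE 0.14) was smaller than the gap between the control arrays. Calcb, which encodes the beta form of CGRP, read 4.10 and 4.49 in control and 4.40 and 4.39 in Ctcfl arrays. These values lie around the lower quartile, and the first control array alone set the difference of 0.10 (SE 0.14), which was -0.095 without it.

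**Figure D1:**
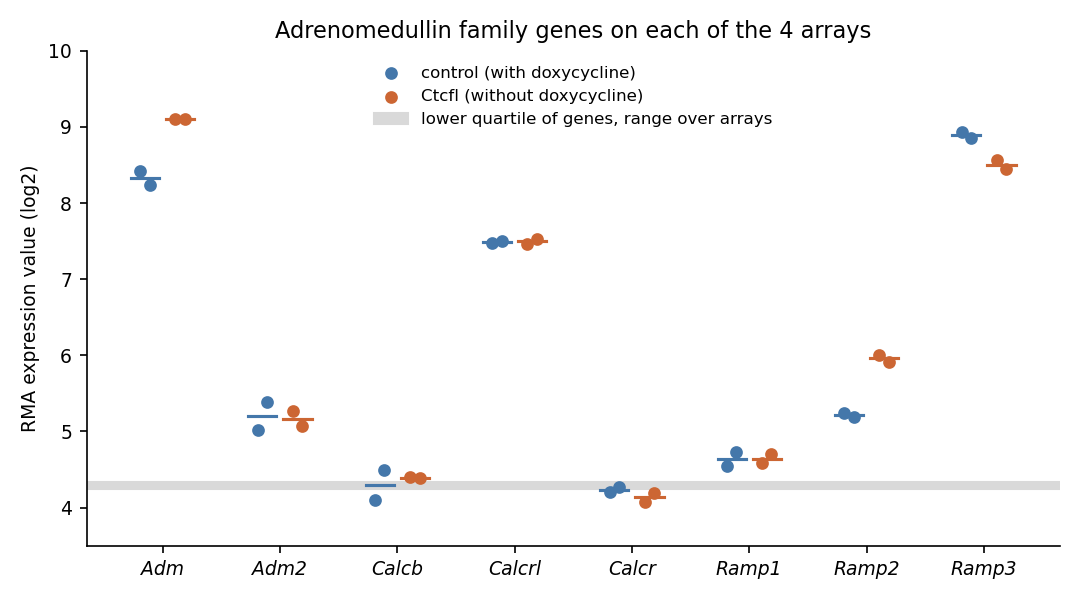
RMA expression values (log2, vertical axis) of the 8 measured family genes. Points are single arrays, control in blue and Ctcfl in orange, short lines are group means, and the grey band is the lower quartile of genes over the 4 arrays (4.25 to 4.34). Adm and Ramp2 are higher and Ramp3 is lower in both Ctcfl arrays, while Calcrl lies between 7.46 and 7.53 on every array.

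The receptor genes themselves differed little. Calcrl read 7.48 and 7.50 on the control arrays and 7.46 and 7.53 on the Ctcfl arrays. The groups overlapped, and the difference was 0.005 (SE 0.08). Calcr read 4.20 and 4.27 in control and 4.08 and 4.19 in Ctcfl arrays. Both Ctcfl arrays were just below both control arrays (difference -0.10, SE 0.09), but all 4 values were below the lower quartile, the only measured member for which this was so.

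The 3 RAMP genes each showed another pattern. Ramp1, the partner that makes CALCRL a CGRP receptor, read 4.55 and 4.73 in control and 4.58 and 4.70 in Ctcfl arrays, with the same mean of 4.64 in both groups. Ramp2, the adrenomedullin partner that mice need to survive to birth, read 5.24 and 5.19 on the control arrays and 6.01 and 5.91 on the Ctcfl arrays. Its control values were below the median over genes (5.48 and 5.54 on these arrays). Both Ctcfl arrays exceeded both controls, by 0.745 (SE 0.09) or 1.68-fold, the 20th highest difference of all genes. The SD was 0.04 in the control and 0.07 in the Ctcfl arrays (n = 2 per group).

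Ramp3, the other adrenomedullin partner, went the other way. It read 8.93 and 8.85 on the control arrays and 8.56 and 8.45 on the Ctcfl arrays. Both Ctcfl arrays were below both controls, by 0.385 (SE 0.09) or 1.31-fold, which was the 221st lowest difference of all genes. Neither neighbouring measured gene of Ramp3 or Ramp2 had a difference as large: Wap and Adcy1 beside Ramp3 had 0.025 and -0.185, and Ezh1 and Vps25 beside Ramp2 had 0.065 and -0.155.

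The fit over all genes used limma, with Benjamini-Hochberg adjustment and a threshold of 0.05. It called 0 of the 8 members, beside 0.0451% of all genes. At an unadjusted p under 0.05 there were 3 members (Adm, Ramp2 and Ramp3), beside 10.7% of all genes. Both Ctcfl arrays were above both controls for 2 members (20.6% of all genes) and below both for 2 members, Ramp3 and Calcr (20.6% of all genes). The median difference over the 8 members was 0.003, against 0.000 over all genes. Because the members were chosen with this contrast in view, nothing is read from these counts.

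The number of members called depended on the model. With an intensity trend and robust variances limma called 3 members (Adm, Ramp2 and Ramp3), beside 2.4% of all genes. It called 1 member, Ramp2, after median centring (0.155% of all genes) and without the dimmest 33.3% of genes (0.15% of the genes kept). Nothing is read from these counts either, since the members were chosen with the contrast in view.

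**Figure D2:**
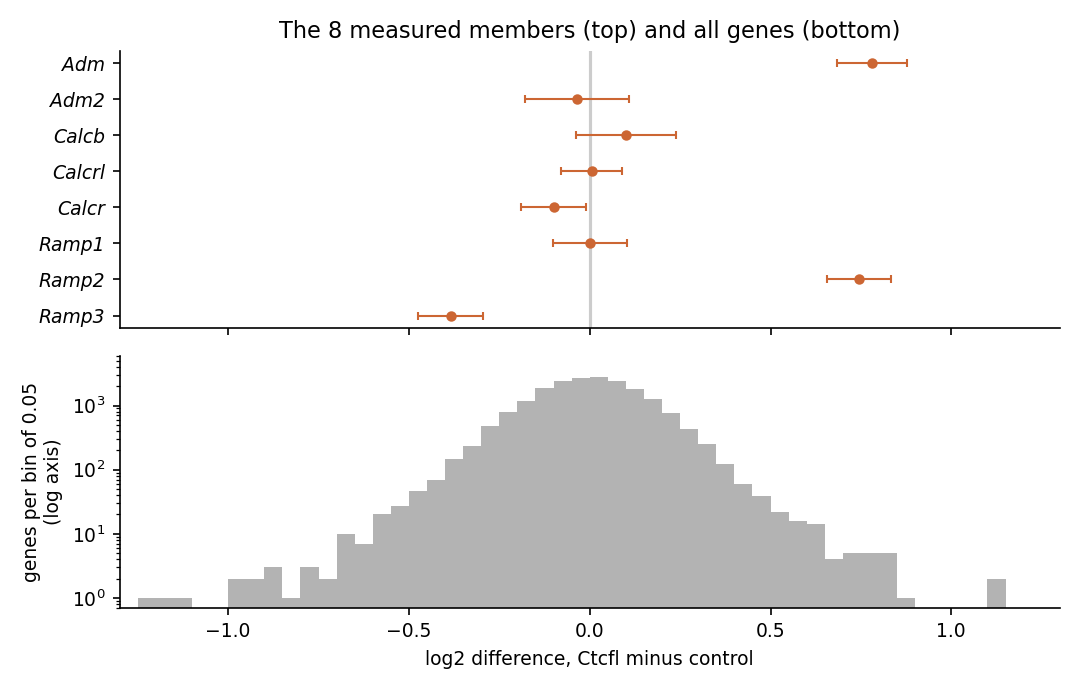
Top, log2 difference of each measured member (Ctcfl minus control, horizontal axis), with bars of 1 SE from limma. Bottom, the number of genes in bins of 0.05 on the same axis (vertical log axis); 6 of 19938 genes lie outside the plotted range. Adm (0.78) and Ramp2 (0.745) lie in the sparse right tail, Ramp3 (-0.385) lies on the left flank, and the other 5 members lie near 0.

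Profiles over the 4 arrays were compared by Euclidean distance after each gene's mean was subtracted. The 5 genes closest to Adm were Fam20a (distance 0.109), Ifnz (0.114), Ermp1 (0.119), Ramp2 (0.121) and Exd1 (0.137). Ramp2 was thus the fourth closest of all genes on the array, whereas the remaining members lay at distances of 0.789 (Calcrl) to 1.170 (Ramp3). Fam20a encodes a pseudokinase of the secretory pathway and Ermp1 a metallopeptidase of the endoplasmic reticulum. Over 4 arrays in 2 groups, such a distance mainly records the difference between groups and its size.

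The measured genes on either side of Adm in the GRCm38.p6 annotation had differences near 0 and overlapping groups. Sbf2 read 8.43 and 8.37 in control and 8.37 and 8.45 in Ctcfl arrays, a difference of 0.01 (SE 0.09). B430319F04Rik had -0.065 (SE 0.19). Over the 16 nearest measured neighbours of the 8 members the differences ran from -0.185 to 0.41, and the groups overlapped for 11 of them, as they did for 11737 of all 19938 genes. The lowest was that of Adcy1, an adenylate cyclase gene, and the highest that of Vps50, next to Calcr.

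The remaining genes of the pathway were taken from 9 lists by function. Of 150 listed genes 138 were measured, and limma called 0 of them after adjustment. At an unadjusted p under 0.05 there were 8 higher and 13 lower, beside 10.7% of all genes in either direction. Their median difference was -0.005. The counts at an unadjusted p in each list below are to be read against the same 10.7%. With an intensity trend and robust variances 5 were called, Slc9a3r1 higher and Bdkrb1, Nr4a1, Ppargc1a and Vegfa lower.

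Among 14 measured genes of peptide processing and clearance, 0 were called and 1 had an unadjusted p under 0.05, Ece2, an endothelin-converting enzyme (-0.36, SE 0.12, adjusted p = 0.399 by limma). The other probe set of Ece2 had -0.12. Pam, the enzyme that amidates adrenomedullin, read 9.69 and 9.67 in control and 9.49 and 9.56 in Ctcfl arrays. Both Ctcfl values were below both controls, with a difference of -0.155 (SE 0.08, adjusted p = 0.552 by limma). The proprotein convertase Furin had 0.02 and the adrenomedullin-degrading protease Mme -0.10, both with overlapping groups. The values of Mme were below the lower quartile on all 4 arrays. Dpp3, a dipeptidyl peptidase, had 0.19 (SE 0.09) and the insulin-degrading enzyme Ide 0.12 (SE 0.09).

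Related receptors and ligands also stayed uncalled. Ackr3, a scavenging receptor for adrenomedullin and the chemokine CXCL12, read 4.79 on both control arrays and 4.89 and 4.93 on the Ctcfl arrays (difference 0.12, SE 0.08, adjusted p = 0.634 by limma). Crcp, once described as a component of the CGRP receptor, had -0.02. Iapp, which encodes amylin, had 0.00, from values below the lower quartile on all 4 arrays. Of 13 other class B peptide hormone receptors, several of which can also pair with RAMPs, 0 were called and 1 had an unadjusted p under 0.05, the VIP receptor gene Vipr1 (-0.335, SE 0.12), whose other probe set had 0.065. Its relative Vipr2 had 0.22 (SE 0.10), Glp1r 0.19 and Pth1r 0.175.

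Downstream of the receptors, 29 genes of cyclic AMP signalling were measured, with a median of 0.005. Limma called 0, and unadjusted p was under 0.05 for 2, both with negative differences. These were the CREB coactivator Crtc3 (-0.275, SE 0.08) and the phosphodiesterase Pde8b (-0.285, SE 0.11). Adcy1 had -0.185 (SE 0.08) and the regulatory subunit Prkar2b -0.165 (SE 0.10). Probe sets for Gnas, the Gs alpha subunit, were not analysed here.

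Of 13 measured genes that respond to CREB, limma called 0, and unadjusted p was under 0.05 for 3, all with negative differences, beside 10.7% of all genes in either direction (1069 higher and 1060 lower of 19938). Ppargc1a, a coactivator of mitochondrial genes, read 7.67 and 7.74 in control and 7.25 and 7.24 in Ctcfl arrays. The groups did not overlap (difference -0.46, SE 0.08, adjusted p = 0.214 by limma), and the other probe set of the gene had -0.47. The nuclear receptors Nr4a2 and Nr4a1 had -0.40 (SE 0.10) and -0.33 (SE 0.09) and the transcriptional regulator Cited2 had -0.14 (SE 0.09), while Crem and Dusp1 had 0.09 and 0.11. The list's median was -0.10, with 4 of 13 members below both controls and 3 above both, beside 20.6% of all genes in each direction.

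Genes of receptor desensitisation and trafficking had differences on both sides of 0. Of 8 measured members, 0 were called, and at an unadjusted p under 0.05 there were 3 higher and 2 lower, beside 10.7% of all genes in either direction. Slc9a3r1, which encodes NHERF1, a scaffold protein that binds RAMP3, read 7.34 and 7.40 in control and 7.86 and 7.83 in Ctcfl arrays. Here too the groups were apart (difference 0.475, SE 0.08, adjusted p = 0.198 by limma). The receptor kinases Grk4 and Grk5 had 0.385 (SE 0.12) and 0.24 (SE 0.09), Grk4 from values below the lower quartile on all 4 arrays, whereas Grk6 had -0.26 (SE 0.08). Beta-arrestin 1, Arrb1, had -0.315 (SE 0.09).

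Adm is a well-known target of hypoxia-inducible factors, so hypoxia genes were set beside it. Of 10 hypoxia sensing genes 0 were called, 0 had an unadjusted p under 0.05 by limma, and all differences lay between -0.19 (Egln3, a prolyl hydroxylase) and 0.125 (Hif3a). Hif1a read 9.36 and 9.32 in control and 9.38 and 9.49 in Ctcfl arrays (difference 0.095, SE 0.09), and Epas1, which encodes HIF-2 alpha, had -0.17 (SE 0.08). Among 25 measured hypoxia-inducible genes other than Adm, 0 were called, and 3 were higher and 1 lower at an unadjusted p under 0.05. The one lower gene was Vegfa, the vascular endothelial growth factor, which read 8.14 and 8.05 in control and 7.74 and 7.68 in Ctcfl arrays (difference -0.385, SE 0.09, adjusted p = 0.288 by limma). Pfkfb3 (0.33, SE 0.12), Mxi1 (0.325, SE 0.08) and Ndrg1 (0.23, SE 0.09) were the higher ones. The list's median was -0.045. The part of hypoxia signalling in the value of Adm was not tested.

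Among 23 other vasoactive peptides and receptors 0 were called, and 2 were higher and 3 lower at an unadjusted p under 0.05. Bdkrb1, the inducible bradykinin receptor, read 7.50 and 7.52 in control and 6.88 and 6.94 in Ctcfl arrays. The groups were apart, with the lowest difference of all pathway genes (-0.60, SE 0.08, adjusted p = 0.147 by limma). Bdkrb2, the constitutive bradykinin receptor, had -0.36 (SE 0.12). The natriuretic peptide gene Nppb had 0.255 (SE 0.09) and the endothelin receptor gene Ednrb 0.245 (SE 0.10), the latter from values below the lower quartile on all 4 arrays. Edn1, which encodes endothelin 1, a peptide that narrows vessels, had 0.17 (SE 0.09).

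**Figure D3:**
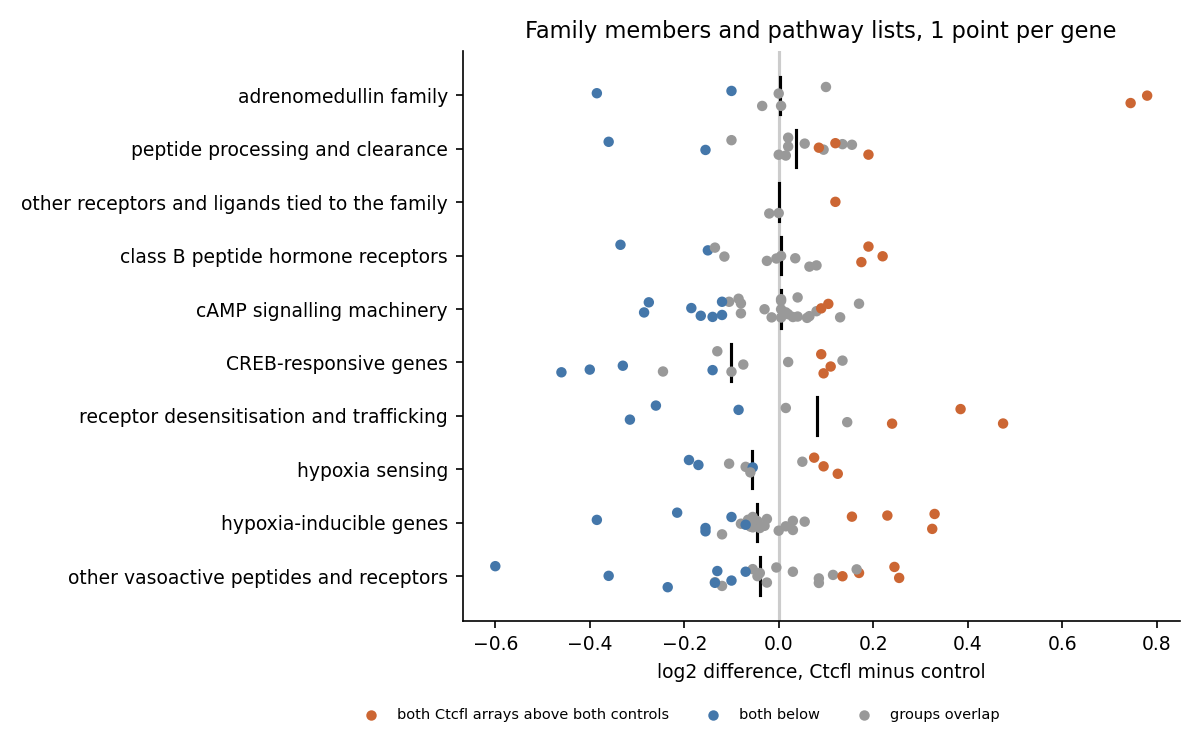
Log2 difference (Ctcfl minus control, horizontal axis) of each measured gene in the family and in the 9 pathway lists; 1 point is 1 gene, black ticks are list medians, and vertical scatter within a list only separates points. Orange points have both Ctcfl arrays above both controls, blue points both below, and grey points overlap. The pathway genes lie between -0.60 and 0.475, while Adm and Ramp2 lie at 0.78 and 0.745.

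CALCRL, RAMP2 and adrenomedullin are best known from endothelial cells, so markers of that and other cell types were set beside the family. The 8 fibroblast markers, such as Col1a2, Vim and Thy1, all measured, read 7.48 to 12.18. Their summed log2 level was 83.05 and 83.11 in control and 81.97 and 81.68 in Ctcfl arrays, with Pdgfrb (-0.56) and Col3a1 (-0.38) the furthest below 0, the only 2 of the list at an unadjusted p under 0.05. The 8 blood endothelial markers, Pecam1 and Cdh5 among them, read 3.24 to 5.35, below the median of genes on every array, and 3 of them were below the lower quartile on all 4 arrays. Their summed level was 34.22 and 34.52 in control and 34.72 and 35.26 in Ctcfl arrays. Limma called 0 of the 8, 0 had an unadjusted p under 0.05, and the median of the list was 0.087.

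The summed level of 4 lymphatic endothelial markers was 22.73 and 23.02 in control and 23.16 and 23.42 in Ctcfl arrays. Single levels in that list ran from 3.98 to 9.98, highest for Pdpn. The summed level of 6 smooth muscle markers was 37.01 and 36.90 against 37.73 and 37.61, from single levels of 4.08 to 10.87, highest for Acta2. The 6 macrophage markers summed to 29.67 and 30.21 against 29.81 and 30.20, with overlapping groups. The 6 epithelial markers summed to 29.96 and 29.30 against 30.02 and 30.29. Krt8 had the highest difference of that list (0.575), whose median was 0.015. The 6 neuron markers summed to 28.09 and 28.45 against 27.80 and 28.02. For thyroid C-cell and neuroendocrine markers, 5 of 6 measured, the sums were 24.05 and 24.29 against 24.51 and 23.50. Over these 8 marker lists limma called 0 genes after adjustment, beside 0.0451% of all genes. Unadjusted p by limma was under 0.05 for Pdgfrb, Col3a1, Krt8, the smooth muscle gene Myh11 (0.235) and the neuron gene Tubb3 (-0.36). These, and the unadjusted counts of single marker lists, are to be read against 10.7% of all genes. With the intensity trend and robust variances, the model that called Adm, Ramp2 and Ramp3, limma also called 3 markers, beside 2.4% of all genes. Pdgfrb and Col3a1 were lower and Krt8 higher. The part of these differences in the values of Adm and Ramp2 was not tested. In such bulk RNA, fewer cells of a type and less RNA per cell cannot be told apart.

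Adm and Ramp2 stayed higher and Ramp3 lower when single arrays were left out. Since the groups of these genes did not overlap, leaving out a single array could change the size of the difference but not its sign. The difference ran from 0.69 to 0.87 for Adm, from 0.695 to 0.795 for Ramp2 and from -0.44 to -0.33 for Ramp3. For Calcrl it stayed between -0.03 and 0.04. The sign changed with the array left out for Calcrl, and also for Adm2 (-0.22 to 0.15), Calcb (-0.095 to 0.295) and Ramp1 (-0.09 to 0.09).

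**Figure D4:**
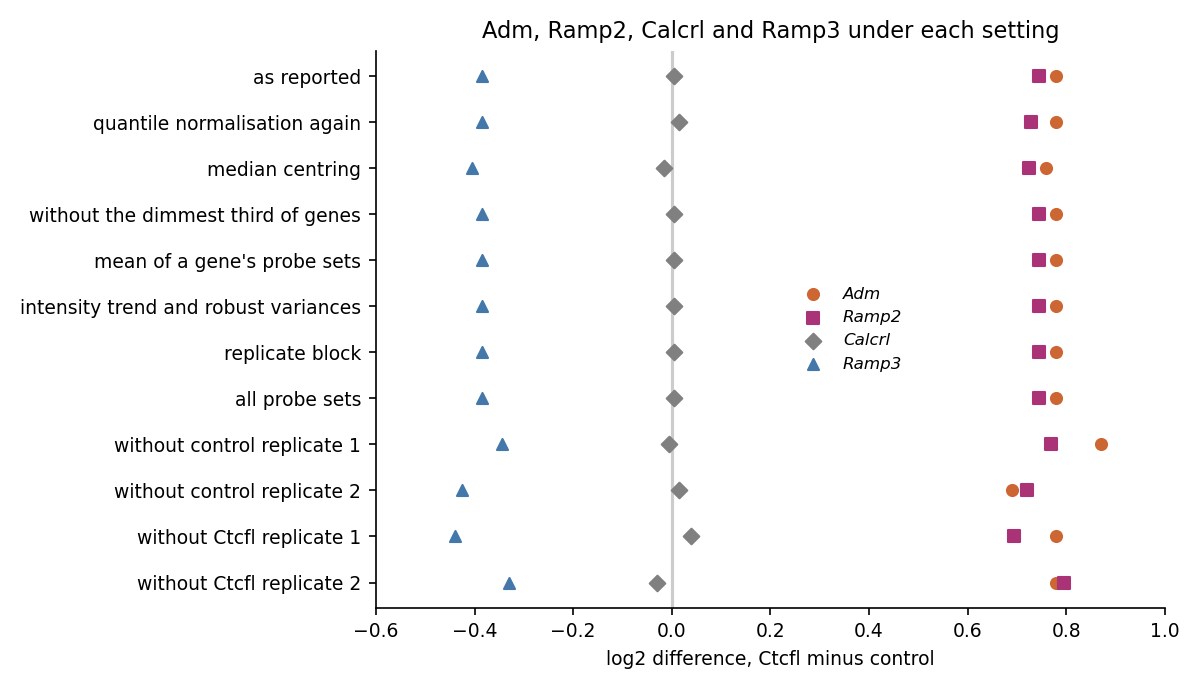
Log2 difference (Ctcfl minus control, horizontal axis) of Adm, Ramp2, Calcrl and Ramp3 as reported and under each alternative setting (vertical axis), including the fits with 1 array left out. In every setting shown Adm and Ramp2 lie at 0.69 or above, Calcrl lies within 0.04 of 0, and Ramp3 lies at -0.33 or below. Apart from leaving out an array, only repeated quantile normalisation and median centring could move these differences.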

How the data were processed

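Expression was deposited as log2 values, which the authors obtained by RMA in Expression Console, per the labels. RMA corrects background, quantile-normalises arrays and summarises each probe set, so it can compress differences of dim probe sets. The program's version and options are not given in the sources used here. Of 35511 probe sets with a value, 21789 had 1 symbol in the platform annotation of 2016, 1621 had several and 12101 are not listed there. RefSeq (GRCm38.p6) matched 21698 by gene identifier. The probe set with the highest mean stood for each gene, and every measured member had 1.

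Groups were compared with limma 3.58.1 (lmFit, eBayes) in R 4.3.3 over 19938 genes, two-sided, with Benjamini-Hochberg adjustment. The test was checked on simulated data with known differences. The simulated variances followed the distribution that limma had fitted to these arrays. Such a check covers the computation, not how well that model suits the data. The members and lists were chosen with earlier results of these data known. All members are named. From each pathway list up to 4 genes are named, those called and then the largest differences with groups that do not overlap, besides the 5 genes nearest to Adm in profile, the neighbours of Adm, and Pam, Ackr3, Hif1a, Epas1 and Vegfa. Furin, Mme, Crcp, Iapp, Crem, Dusp1, Grk5, Edn1, Wap, Ezh1, Vps25, Vps50 and the markers named were chosen after their values were seen. Same-numbered arrays were not shown to pair (correlation of deviations -0.102). Results were recomputed with repeated quantile normalisation, with median centring, without the dimmest 33.3% of genes, with probe sets of a gene averaged, with robust variances and a trend on intensity (statmod 1.5.0), with the replicate number as a block, over all probe sets, and without each array. Figures were drawn with matplotlib 3.10.9.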

Additional observations from a re-analysis of the deposited data

How the results depend on the processing

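Over all genes limma called 9 (6 higher, 3 lower). It called 31 after median centring (16 higher, 15 lower), 20 without the dimmest 33.3% of genes, 479 with robust variances and a trend (220 higher, 259 lower), and 9 after quantile normalisation again (7 higher, 2 lower). It called 0 with the replicate block (1468 at an unadjusted p under 0.05), 0 over all probe sets (2764 unadjusted) and 0 when any array was left out (1329 to 1663 unadjusted). The correlation of deviations between same-numbered arrays was -0.102, so the crossed pairing was added after seeing the data, and it called 0 (2105 unadjusted). The number of members called was 0, but 1 after median centring, 1 without the dimmest 33.3% of genes and 3 with the trend. With the replicate block it was 0. Leaving out the dimmest genes also left 6 members to test, without Calcr and Calcb. Of the pathway genes 0 were called, but 5 with the trend. The cause of these differences was not tested, except that the replicate block and the fits without an array have fewer residual degrees of freedom. Leaving out an array gave Adm a difference of 0.690 to 0.870, the lowest without control replicate 2. Over the 7 other settings Adm ran from 0.76 to 0.78, Ramp2 from 0.725 to 0.745 and Ramp3 from -0.405 to -0.384. Of these settings, only repeated quantile normalisation and median centring could move a member's difference. The rest left it unchanged by design, since every measured member had 1 probe set and the groups were balanced. With 2 arrays per group, differences near the SE of about 0.1 could not be resolved, and dim probe sets such as those of Calcr and Calcb have no known distance from background.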
